A study of Mus musculus with 4 samples.

Results

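The genes described here are 7 regulators and markers of the sympathoadrenal lineage and of the neural crest from which it arises: Phox2a, Hand2, Th, Dbh, Sox10, Foxd3 and Erbb3. They were taken by name, 7 of the 21495 genes counted in 52745 single cells of mouse embryonic gonads with the attached mesonephros. There were 4 samples and 1 sample per group, with the strain given for all of them as C57BL/6 x 129S4/SvJae. The XY control of embryonic stage E11.5 came from the unedited G4 embryonic stem cell line through tetraploid aggregation, so that the stem cells form the fetus itself. The KO embryos, XY at E11.5 and at E11.75, came in the same way from G4 cells in which the miR-17-92 microRNA cluster had been deleted on both alleles by CRISPR/Cas9 (the E11.5 KO and E11.75 KO samples, XY KO in the plots). The XX control at E11.5 came from crosses of C57BL/6J males with 129 females and carried no deletion. Each sample was a pool of gonads from several embryos, and both KO samples and the XY control derive from 1 parental cell line. No group had a replicate, so no test between groups was possible and no p-value is given. The KO sample at E11.75 has no control of its own stage, so that stage and deletion cannot be told apart in it.

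Sympathetic neurons and the chromaffin cells of the adrenal medulla arise from neural crest cells that migrate past the dorsal aorta, close to the gonadal ridge and the adrenal primordium. Crest cells and the Schwann cell precursors that follow nerves express Sox10, Foxd3 and the neuregulin receptor gene Erbb3. As they commit, they switch on Phox2a, Hand2 and the enzymes of noradrenaline synthesis, tyrosine hydroxylase (Th) and dopamine beta-hydroxylase (Dbh).

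Since the KO samples lack the miR-17-92 cluster, the 7 genes were searched for its target sites, and the miRNA of each seed family is shown with the seed, bases 2 to 8 counted from the 5′ end, in capitals (RefSeq, GRCm38.p6, chromosome 14, plus strand). These are miR-17-5p (chr14:115043684-115043706), miR-18a-5p (chr14:115043867-115043889), miR-19b-3p (chr14:115044358-115044380) and miR-92a-3p (chr14:115044476-115044496).
miR-17-5p: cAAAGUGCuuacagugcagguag
miR-18a-5p: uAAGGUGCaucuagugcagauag
miR-19b-3p: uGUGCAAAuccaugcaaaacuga
miR-92a-3p: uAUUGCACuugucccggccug
Only Hand2 held a match to any of the 4 seeds in its longest annotated 3′ UTR. The match was 1 site of 7 bases for the miR-92 seed, at base 118 of a 3′ UTR of 773 bases, shown here in capitals (mm10, chr8:57323967-57323995, plus strand).
Hand2 site: ggtttatttatGTGCAATttccttcccct
The other 6 genes held no match, in 3′ UTRs of 279 (Th) to 1845 bases (Erbb3). Among 17302 genes with a 3′ UTR, 43.3% held a match of at least 7 bases and 12.3% one of 8 bases, at a median length of 1069 bases, and 0 of the 7 held one of 8 bases.

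The promoters of Th and Dbh are shown for the directions that these enzyme genes shared (see the ratios further on). Both were above the XY control in the KO samples and below it in the XX control. Sox10 and Foxd3 had ratios of the same signs, with 0 inside their intervals in both KO samples. The windows run from 250 bases before to 50 bases after the RefSeq start site (GRCm38.p6), on chr7:142899946-142900245, minus strand, for Th and chr2:27165257-27165556, plus strand, for Dbh. Capitals mark the cyclic AMP response element TGACGTCA and the homeodomain core ATTA on either strand, where it reads ATTA or TAAT.
Th promoter: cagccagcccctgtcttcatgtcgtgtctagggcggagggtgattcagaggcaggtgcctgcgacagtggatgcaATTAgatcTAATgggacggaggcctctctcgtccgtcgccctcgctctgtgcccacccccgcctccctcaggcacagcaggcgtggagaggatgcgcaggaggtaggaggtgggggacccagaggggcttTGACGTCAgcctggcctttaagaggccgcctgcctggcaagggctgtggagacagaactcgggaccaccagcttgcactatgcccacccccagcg
Dbh promoter: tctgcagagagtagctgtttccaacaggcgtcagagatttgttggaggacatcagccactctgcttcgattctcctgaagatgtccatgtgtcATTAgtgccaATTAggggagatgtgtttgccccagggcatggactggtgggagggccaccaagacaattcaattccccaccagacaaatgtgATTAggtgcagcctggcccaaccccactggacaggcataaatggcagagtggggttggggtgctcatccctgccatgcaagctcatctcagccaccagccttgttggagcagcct
The Th window held the response element at -45 from the start site and ATTA at -175 and -167. The Dbh window held ATTA at -157, -147 and -65 and no response element. Of 32851 such windows, 1.79% held the response element, 58.0% at least 1 ATTA and 20.04% at least 3. Windows were at hand for 5 of the 7 genes. Foxd3 held the response element at -233 and 1 ATTA, Hand2 held 5 ATTA, of which the pair at -175 and -173 overlap, and Phox2a held neither motif. At least 5 ATTA were found in 6.86% of windows. Matches are descriptions of these letters only.

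The 4 samples held 105192238 UMIs (unique molecular identifiers) in 23527 cells for the XY control, 90233642 in 17057 for the E11.5 KO, 37841392 in 8492 for the E11.75 KO and 67952558 in 3669 for the XX control. The study's methods give the cell numbers of both KO samples the other way round, while the stages used here are those of the labels and files. The methods also give a single run for the later KO sample alone, and the files hold 1 run for the E11.75 KO and 2 for the E11.5 KO, as labelled. The sympathoadrenal and crest cells carry the deposited name adrenosympathetic cells and numbered 524, 134, 68 and 87 in this order, 813 in all. They made up 2.23% (95% exact Clopper-Pearson interval 2.04 to 2.42) of the cells of the XY control and 2.37% (1.90 to 2.92) of the XX control. In the E11.5 KO they made up 0.786% (0.659 to 0.9298) and in the E11.75 KO 0.801% (0.622 to 1.01). All intervals here are at 95% and cover counting error only. Adrenosympathetic cells held a median of 4416, 6643.5, 5551.5 and 18471 UMIs in the same order, so XX cells were the deepest by far. Gm42418, a gene that overlaps a ribosomal RNA repeat, was at 10939 CPM (counts per 1000000 UMIs) in adrenosympathetic cells of the E11.75 KO and at 3376 to 4565 in the other samples. Of the 813 cells, 16 shared a barcode with a cell of another of the 7 libraries, and 0 barcodes were an adrenosympathetic cell in more than 1 library.

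The name was checked against markers other than the 7 genes. Tubb3, a neuronal tubulin, was at 416, 439, 321 and 394 CPM in adrenosympathetic cells of the XY control, the E11.5 KO, the E11.75 KO and the XX control. In all other cells it was at 0.989 to 2.79 CPM. It was found in 53.1%, 52.99%, 60.3% and 70.1% of adrenosympathetic cells and in 0.404% to 3.24% of the others. Elavl4, a neuronal RNA-binding protein gene, was at 173 to 326 CPM against 2.35 to 4.33 in other cells. Fabp7, a fatty acid binding protein gene of glial precursors, was at 35.9 to 87.6 CPM against 1.76 to 4.64. Neuronal and crest-derived markers were thus present in the cells of that name in all 4 samples. Among markers of other cell types, Cyp21a1 of the adrenal cortex and Tyr of pigment cells were at 0 in adrenosympathetic cells of every sample. The 10 adrenal cortex markers summed to 8.91 to 31.1 CPM, the 6 endothelial ones to 10.6 to 34.0, the 6 of immune cells to 3.34 to 9.95 and the 5 of melanoblasts in the table to 4.79 to 12.2. The 6 germ cell markers summed to 9.99 to 50.3 CPM, the 6 of nephric epithelium to 28.8 to 58.8 and the 6 of gonadal somatic cells to 58.8 to 165.3. Mesenchyme markers summed to 399, 265, 963 and 288 CPM and erythroid markers to 2611, 815, 1201 and 713 CPM in the order of samples above, none of them at 0 throughout. Their part in the results was not tested.

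Of the 7 genes, 4 were nearly restricted to adrenosympathetic cells. Phox2a, the homeobox gene that takes part in switching on the noradrenergic programme, had 82.6% of its UMIs in these cells in the XY control, 85.0% and 78.9% in the E11.5 and E11.75 KO and 84.9% in the XX control. Th had 80.3% to 89.9% of its UMIs there, Dbh 86.9% to 95.8% and Foxd3 75.5% to 95.7%. Adrenosympathetic cells were the highest of the 13 cell types for each of the 7 genes in every sample. Sox10, Hand2 and Erbb3 had further sites. Sox10 had 49.1% of its UMIs in adrenosympathetic cells in the XY control and 89.5% in the XX control, Hand2 10.1% to 27.0% and Erbb3 12.1% to 29.9% over the samples.

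**Figure D1:**
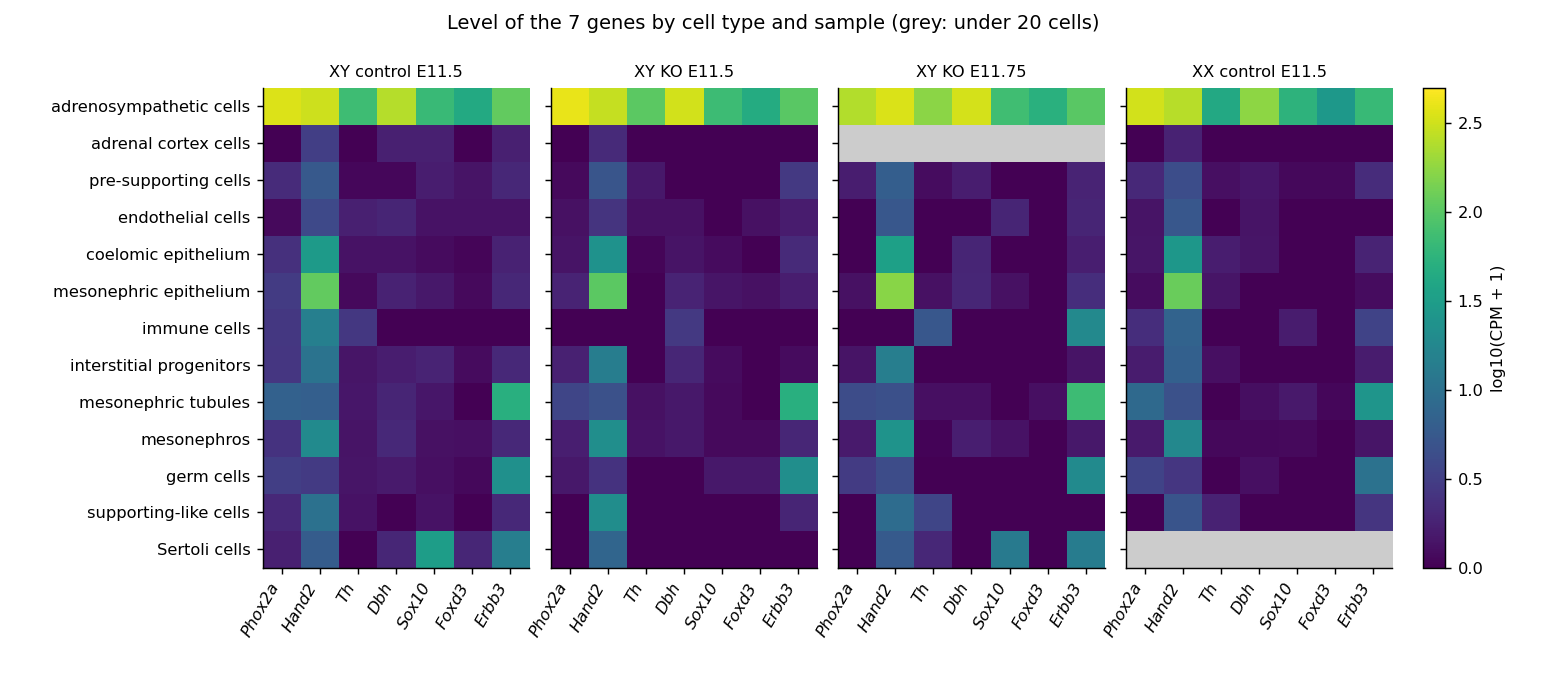
Level of each of the 7 genes (columns) in each of 13 cell types (rows), as log10(CPM + 1) of summed UMIs, with 1 panel per sample and types of under 20 cells in grey. All 7 genes are brightest in adrenosympathetic cells, and the second sites are mesonephric epithelium for Hand2, mesonephric tubules and germ cells for Erbb3, and Sertoli cells for Sox10 in the XY control and the E11.75 KO.

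The first comparison asked how the levels in adrenosympathetic cells differed between samples, as the sum of a gene's UMIs over these cells per 1000000 UMIs of the same cells, which does not depend on the number of cells. The transcription factors come first. Phox2a had a level of 363 CPM in XY control cells (exact Poisson interval of 339 to 387, from 874 UMIs), 403 in the E11.5 KO (363 to 447, 362 UMIs), 242 in the E11.75 KO (197 to 294, 101 UMIs) and 324 in the XX control (297 to 352, 551 UMIs). The KO sample at E11.75 was the lowest, and its interval overlapped none of the others. Hand2, a basic helix-loop-helix factor that maintains the noradrenergic state, was at 308 CPM in XY control cells (286 to 331), 288 in the E11.5 KO (254 to 326), 352 in the E11.75 KO (298 to 414) and 253 in the XX control (229.9 to 278). These 4 levels lay within 1.5-fold of each other, with the 3 XY intervals overlapping and that of the XX control below the interval of the XY control.

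The enzyme genes followed the same order of samples as each other. Th, the rate-limiting enzyme of catecholamine synthesis, was at 71.8 CPM in XY control cells (61.5 to 83.3, 173 UMIs), 104.7 in the E11.5 KO (84.6 to 128, 94 UMIs), 170.1 in the E11.75 KO (133 to 215, 71 UMIs) and 41.7 in the XX control (32.6 to 52.6, 71 UMIs). None of these 4 intervals overlapped a neighbour in the order XX control, XY control, the E11.5 KO, the E11.75 KO. Dbh, which turns dopamine into noradrenaline, was at 249.7 CPM in XY control cells (230.1 to 270.5, 602 UMIs), 324 in the E11.5 KO (288 to 363, 291 UMIs), 338 in the E11.75 KO (284 to 398, 141 UMIs) and 174 in the XX control (155 to 195, 296 UMIs). The KO samples were the higher ones and the XX control the lowest, with the intervals of both KO samples overlapping each other only.

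The crest genes had overlapping intervals in the 3 XY samples. Sox10, the factor that keeps crest and glial precursors in their state, was at 66.8 CPM in XY control cells (161 UMIs), 70.1 in the E11.5 KO (63 UMIs), 74.3 in the E11.75 KO (31 UMIs) and 55.2 in the XX control (94 UMIs), with overlapping intervals. Foxd3, a forkhead factor of early crest, was at 42.3 CPM (102 UMIs), 44.5 (40 UMIs), 50.3 (21 UMIs) and 26.4 (45 UMIs) in the same order. Erbb3, which binds neuregulins and signals with ErbB2, was at 110.7 CPM (97.9 to 125), 101 (81.6 to 124), 101 (72.5 to 136) and 65.2 (53.7 to 78.5). The XX control was the lowest sample for all 3, with an interval below and apart from that of the XY control for Erbb3, and overlapping it for Foxd3 and Sox10.

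**Figure D2:**
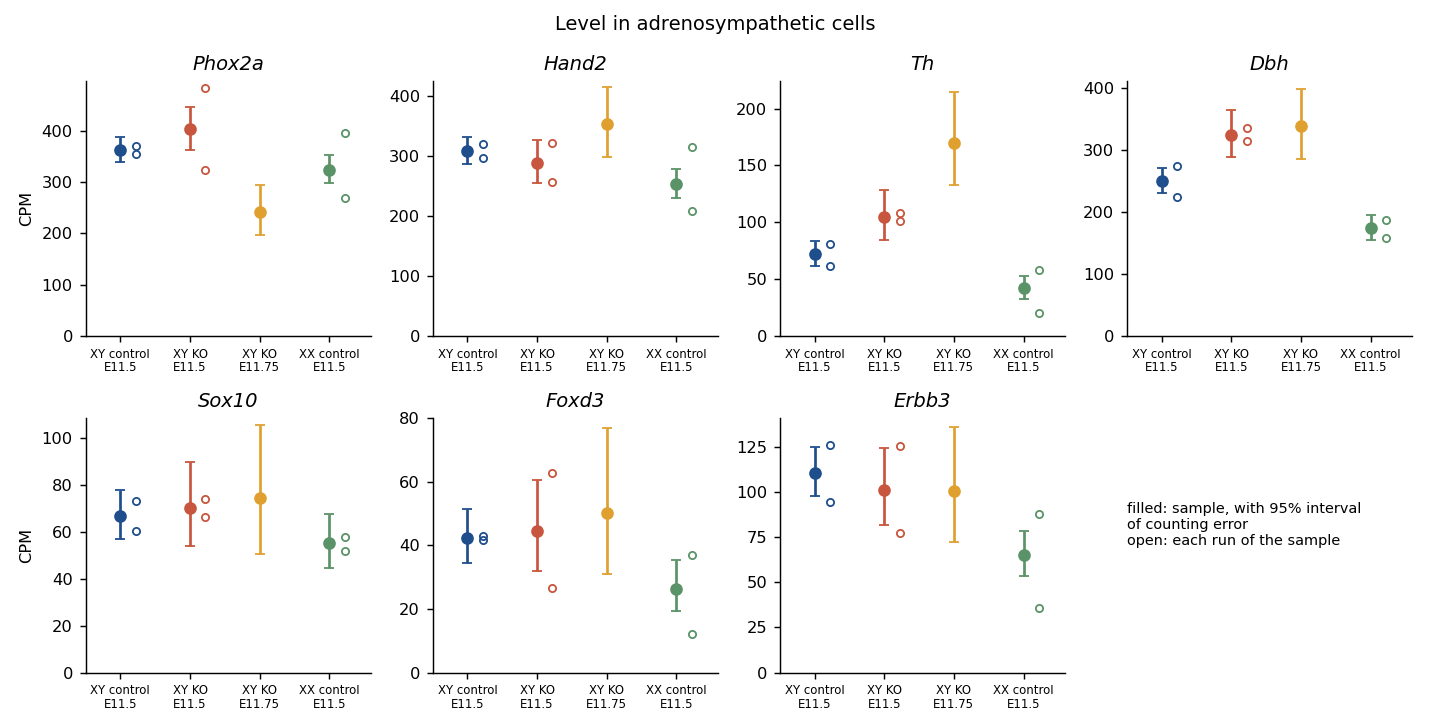
Level of each of the 7 genes in adrenosympathetic cells in CPM by sample, with filled points for the sample and its 95% counting interval and open points for its runs (the E11.75 KO had 1). Th runs from 41.7 CPM in the XX control to 170.1 in the E11.75 KO, and the runs of the XX control lie apart for Th, Foxd3, Erbb3, Phox2a and Hand2.

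Runs of a sample are technical repeats on 1 pool and no replicates, and their spread is given for comparison. In the XY control, Phox2a was at 355 and 370 CPM in its runs, Th at 80.9 and 61.9 and Dbh at 273 and 224. Runs of the E11.5 KO held Phox2a at 482 and 323 CPM, Th at 108 and 101, Dbh at 334 and 314 and Foxd3 at 26.6 and 62.7. In the XX control, Phox2a was at 396 and 269 CPM, Th at 20.5 and 57.8, Foxd3 at 12.3 and 37.1 and Erbb3 at 35.5 and 87.7. The runs of the XX control thus differed by more than 2-fold for Th, Foxd3 and Erbb3, and by more than its difference from the XY control for all of these.

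Ratios were taken per gene as the log2 of CPM in 1 sample over another, for genes with at least 20 UMIs over both, and were set against the share of all genes past 2-fold. Ratios of the E11.5 KO over the XY control past 2-fold were found for 0 of the 7 genes and for 6.04% of 10550 genes tested, with 0.664% higher and 5.37% lower. Th was at 0.54 (exact binomial interval 0.17 to 0.92) and Dbh at 0.38 (0.17 to 0.58), and the other 5 ran from -0.13 (Erbb3) to 0.15 (Phox2a) with 0 inside every interval. The median of the 7 was 0.07, beside -0.10 for all genes. Th and Dbh kept their direction in 11 of 11 alternatives, at 0.32 to 0.78 and 0.19 to 0.64.

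In the E11.75 KO over the XY control, 1 of the 7 genes was past 2-fold, beside 11.2% of 10397 genes (7.12% higher, 4.04% lower). This was Th at 1.24 (0.83 to 1.65). With TMM factors, another scaling, Th was at 0.97 and so under 2-fold. Dbh was at 0.44 (0.16 to 0.70) and Phox2a at -0.58 (-0.89 to -0.28), and both kept their sign in 9 of 9 alternatives, Phox2a at -0.85 to -0.46. Hand2, Sox10, Foxd3 and Erbb3 ran from -0.14 to 0.25 with 0 inside each interval. The median of the 7 was 0.19, beside 0.18 for all genes. Scaling moved the whole of this comparison, since 740 genes were higher and 420 lower past 2-fold by totals, and 317 higher and 834 lower with TMM factors, which moved the median of all genes to -0.09. Of 5 tested mesenchyme markers 4 were higher past 2-fold in the same cells, and Gm42418 was highest there too. Their part in the ratios was not tested.

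In the XX control over the XY control all 7 ratios were below 0, beside a median of -0.17 for all genes. The members' median was -0.52, with Th at -0.78 (-1.20 to -0.38), Erbb3 at -0.76 (-1.10 to -0.44), Foxd3 at -0.67 (-1.22 to -0.16), Dbh at -0.52 (-0.73 to -0.32), Hand2 at -0.28 (-0.46 to -0.11), Sox10 at -0.27 (-0.66 to 0.10) and Phox2a at -0.16 (-0.32 to -0.01). Past 2-fold were 0 of the 7 and 6.4% of 10916 genes, 0.65% higher and 5.75% lower. By totals 71 genes were higher and 628 lower, and 108 and 427 with TMM factors, which moved the median gene to -0.02. With run 1 of the XX control alone, Phox2a was at 0.13 and Hand2 at 0.03, so these had no stable direction. Th was at -0.31 with run 2 alone and at -2.17 in cells thinned to 3000 UMIs. Foxd3 was at -1.76 with run 1 and -0.19 with run 2, and Erbb3 at -1.63 and -0.34. The XX control also differed in breeding, depth and filtering, and these cannot be told apart from sex.

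Between the KO samples, E11.75 over E11.5, 0 of the 7 were past 2-fold beside 17% of 8394 genes (13.5% higher, 3.53% lower). By totals 1129 genes were higher and 296 lower, and 438 and 905 with TMM factors. Phox2a was at -0.73 (-1.07 to -0.41) and Th at 0.70 (0.24 to 1.16), in opposite directions, and with TMM factors they were at -1.08 and 0.35. The other 5 ran from -0.01 (Erbb3) to 0.29 (Hand2), with 0 inside each interval, beside a median of 0.25 for all genes. The 3 comparisons with the XY control share that sample, so their values are not independent of each other.

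**Figure D3:**
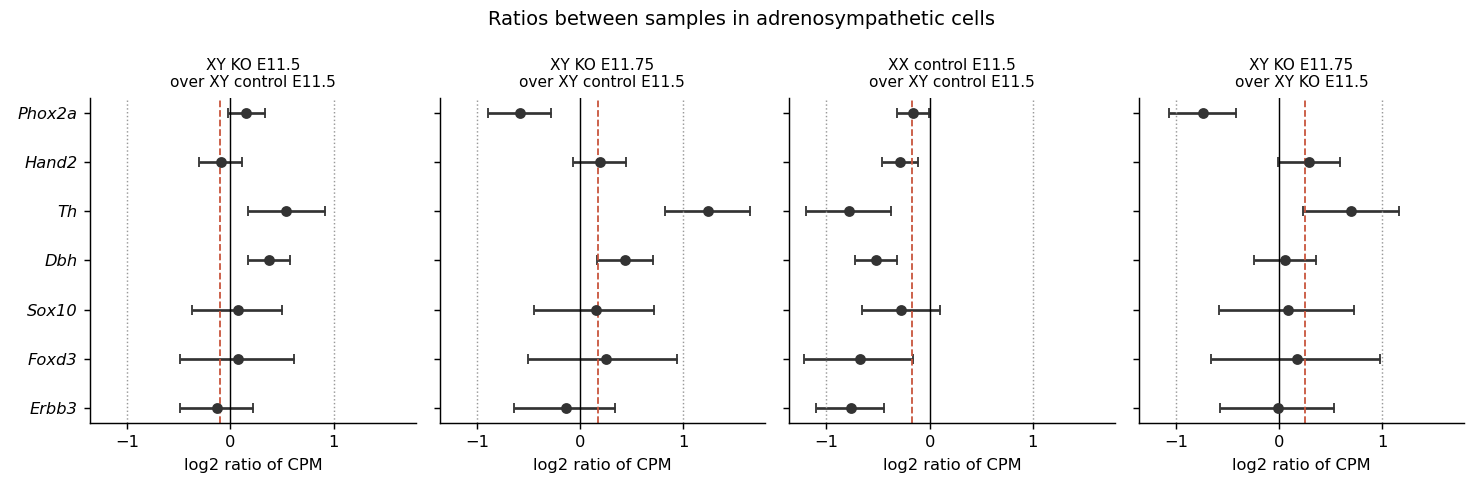
Log2 ratio of CPM in adrenosympathetic cells for each of the 7 genes in 4 comparisons, with 95% counting intervals, the median of all genes as a dashed line and 2-fold as dotted lines. Th stands at 0.54 (E11.5 KO), 1.24 (E11.75 KO) and -0.78 (XX control), and Phox2a at -0.58 in the E11.75 KO.

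Shares of cells were compared after thinning each cell at random to 3000 UMIs, which kept 332, 116, 54 and 71 adrenosympathetic cells of the XY control, the E11.5 KO, the E11.75 KO and the XX control and left out 192, 18, 14 and 16. Th was found in 12.3% (9.01 to 16.4), 13.8% (8.09 to 21.4), 22.2% (12.04 to 35.6) and 5.63% (1.56 to 13.8) of them, against 11.83%, 18.7%, 23.5% and 14.9% unthinned. The order of the thinned shares was that of the CPM, with every neighbouring pair of intervals overlapping. Phox2a was found in 41.0%, 36.2%, 33.3% and 33.8% of thinned cells, Hand2 in 43.7%, 38.8%, 46.3% and 39.4% and Dbh in 31.3%, 30.2%, 35.2% and 23.9%. Sox10 was found in 15.4%, 18.1%, 16.7% and 8.45%, Foxd3 in 10.2%, 9.48%, 9.26% and 8.45% and Erbb3 in 24.7%, 24.1%, 22.2% and 14.1%. For Dbh the thinned share in the E11.5 KO was not above that of the XY control, although its CPM over all adrenosympathetic cells was. The 2 measures cover different cells, since the share leaves out those under 3000 UMIs. In thinned cells the log2 ratio of Dbh was 0.19, beside 0.38 over all adrenosympathetic cells. Mesonephros cells served as background, with medians of 3573, 4586, 3293 and 14477.5 UMIs per cell. They held a UMI of Hand2 in 4.37% to 5.67% of thinned cells, and of Th in at most 0.102%, of Dbh in at most 0.371%, of Phox2a in at most 0.464% and of Sox10, Foxd3 and Erbb3 in at most 0.331%.

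Other genes of the pathway, in 4 lists, gave the context. Of 10 genes of catecholamine synthesis, storage and transport besides Th and Dbh, 8 had enough UMIs. For the E11.5 KO 0 of the 8 were past 2-fold, beside 6.04% of all genes, with a median of 0.11 beside -0.10 for all genes. In the E11.75 KO 1 was higher and 0 lower, beside 7.12% and 4.04% of all genes, with a median of 0.31 beside 0.18. In the XX control 0 were higher and 1 lower, beside 0.65% and 5.75% of all genes, with a median of -0.30 beside -0.17. Slc18a2, the vesicular monoamine transporter of neurons, was at 80.9, 136, 218 and 42.3 CPM in the XY control, the E11.5 KO, the E11.75 KO and the XX control, and was the gene past 2-fold in the E11.75 KO at 1.43 (1.06 to 1.80). Its ratios were 0.75 (0.41 to 1.08) in the E11.5 KO and -0.93 (-1.35 to -0.54) in the XX control. These levels had the same order of samples as those of Th. Not every gene of the list followed it. Gch1, which makes the cofactor of tyrosine hydroxylase, had a ratio of -0.92 (-1.67 to -0.24) in the E11.5 KO. Slc18a1, the monoamine transporter of endocrine cells, had one of -0.46 (-1.09 to 0.12) there, with 0 inside its interval. Cyb561, a cytochrome of the vesicles, was at 112.4, 119, 146 and 54.1 CPM and past 2-fold in the XX control at -1.05 (-1.41 to -0.71), though at -0.90 with TMM factors. Chga and Chgb encode granins of the secretory vesicles. In the same order of samples, Chga was at 206, 226, 264 and 176 CPM and Chgb at 353, 386, 427 and 286. Both were below 2-fold in every comparison. Cyb561, Chga and Chgb thus had the order of samples of Th, and the other tested genes of the list besides Slc18a2 had other orders. Pnmt, which makes adrenaline, had 1 UMI in each control and 0 in both KO samples, where 3 UMIs would be 3.34 and 7.19 CPM.

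Among 11 sympathoadrenal transcription factors, 0 were past 2-fold in the E11.5 KO and in the XX control, beside 6.04% and 6.4% of all genes. In the E11.75 KO 1 was higher and 0 lower, beside 7.12% and 4.04% of all genes. This was Gata2 at 1.15 (0.82 to 1.47), from 119.9 to 266 CPM, with Gata3 at 0.84 (0.57 to 1.10). With TMM factors Gata2 was at 0.88 and so under 2-fold. For the E11.5 KO the ratios of both genes were below 0, with Gata2 at -0.56 (-0.95 to -0.19) and Gata3 at -0.45 (-0.73 to -0.18). The list had medians of -0.02, 0.19 and -0.20 in the E11.5 KO, the E11.75 KO and the XX control, beside -0.10, 0.18 and -0.17 for all genes.

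Of 17 tested neuronal differentiation genes, 1 was lower past 2-fold in the E11.5 KO, 1 higher and 3 lower in the E11.75 KO, and 1 higher and 2 lower in the XX control. Of all genes, 0.664% were higher and 5.37% lower in the E11.5 KO. These shares were 7.12% and 4.04% in the E11.75 KO and 0.65% and 5.75% in the XX control. The medians of the list were 0.22, 0.14 and -0.43, beside -0.10, 0.18 and -0.17 for all genes. Nefm, a neurofilament gene, was counted at 441 CPM in XY control cells, 647 in the E11.5 KO, 95.9 in the E11.75 KO and 734 in the XX control. Its ratio in the E11.75 KO was -2.20 (-2.70 to -1.75). Stmn2, a microtubule regulator of growing axons, was at 198, 346, 129 and 273 CPM, and Nefl, another neurofilament gene, at 641, 667, 740.4 and 428. The genes of this list did not share 1 direction in the E11.75 KO, where 9 of 17 were above 0. Of the neural crest and Schwann cell precursor genes, 18, 19 and 18 were tested in the E11.5 KO, the E11.75 KO and the XX control. In the E11.5 KO 0 were higher and 1 lower, in the E11.75 KO 2 and 2, and in the XX control 0 and 3, beside the shares of all genes given above for the neuronal list. Ednrb, the endothelin receptor of migrating crest, was at 242, 175, 204 and 114 CPM, with -1.09 (-1.33 to -0.85) in the XX control and -0.94 there with TMM factors. Medians of this list were -0.32, 0.25 and -0.28, beside -0.10, 0.18 and -0.17 for all genes.

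The next question was whether the sympathoadrenal genes (Phox2a, Hand2, Th and Dbh) and the crest genes (Sox10, Foxd3 and Erbb3) were found in the same cells. In the XY control, 168 of 332 thinned cells had a UMI of the first set only, 98 of the second only, 16 of both and 50 of neither. In the E11.5 KO these were 51, 40, 5 and 20 of 116 cells, in the E11.75 KO 26, 17, 1 and 10 of 54, and in the XX control 30, 16, 2 and 23 of 71. Cells with both made up 4.82% (2.78 to 7.71), 4.31% (1.41 to 9.77), 1.85% (0.0469 to 9.89) and 2.82% (0.343 to 9.81). Without thinning they made up 7.06%, 9.70%, 10.3% and 11.49%. With at least 2 UMIs asked of each set in thinned cells, 5, 0, 0 and 1 cells had both. Of the thinned cells with a crest gene, 14.04%, 11.1%, 5.56% and 11.1% also held a sympathoadrenal one, against 77.1%, 71.8%, 72.2% and 56.6% of the cells without a crest gene. The adrenosympathetic cells of each sample thus held 2 largely separate groups.

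Pairs of genes were counted over the thinned cells of all samples, where each count also depends on how often either gene was found. Phox2a and Hand2 were found together in 176 cells, Phox2a and Dbh in 148, Hand2 and Dbh in 145, and Th and Dbh in 66. Sox10 and Erbb3 were found together in 46 cells, Foxd3 and Erbb3 in 29 and Sox10 and Foxd3 in 18. Across the sets, Th was found with Sox10, Foxd3 or Erbb3 in 0 cells, and the other pairs in 2 (Phox2a and Foxd3) to 10 cells (Hand2 and Erbb3).

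**Figure D4:**
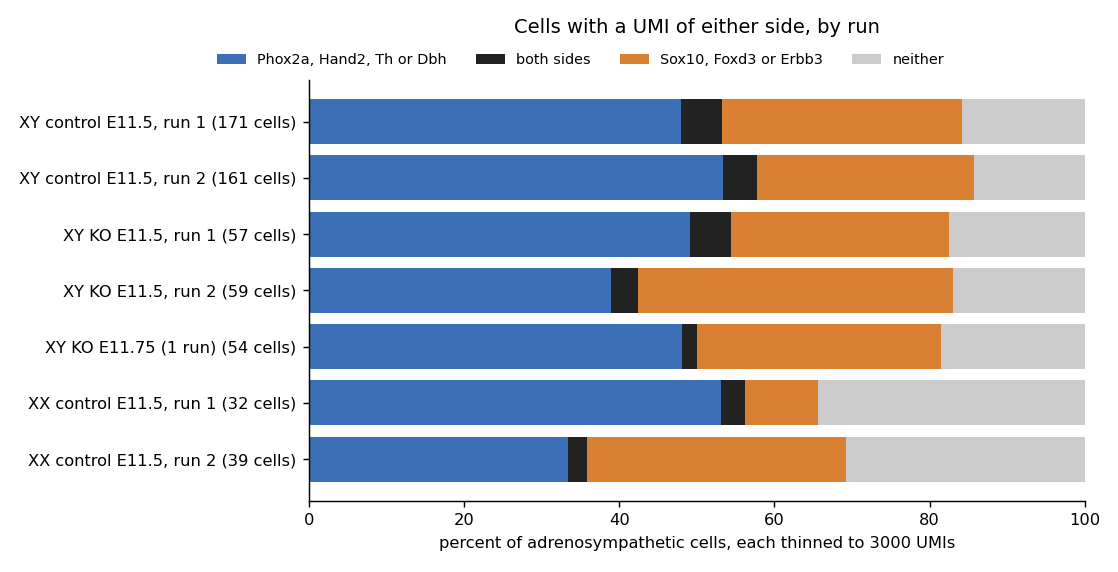
Percent of adrenosympathetic cells, each thinned to 3000 UMIs, with a UMI of Phox2a, Hand2, Th or Dbh only (blue), of both sets (black), of Sox10, Foxd3 or Erbb3 only (orange) or of neither (grey), for each of 7 runs. Cells with both are the thinnest band in every run, and the orange band ranges from 9.38% in run 1 of the XX control to 40.7% in run 2 of the E11.5 KO.

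The proportion of the groups varied as much between runs as between samples. Cells with crest genes only made up 31.0% and 27.95% in the runs of the XY control, 28.1% and 40.7% in those of the E11.5 KO, 31.5% in the E11.75 KO and 9.38% and 33.3% in those of the XX control, the last from 3 of 32 and 13 of 39 cells. Cells with sympathoadrenal genes only made up 48.0% and 53.4%, 49.1% and 39.0%, 48.1%, and 53.1% and 33.3% in the same order. No difference between samples in this proportion was therefore larger than that between runs of 1 sample. CPM over all adrenosympathetic cells also moves with it, since each gene is counted over both groups.

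Genes other than the 7 were then read in both groups, with unthinned cells that had UMIs of 1 set only. There were 241 sympathoadrenal and 135 crest cells in the XY control, 55 and 51 in the E11.5 KO, 32 and 17 in the E11.75 KO and 37 and 25 in the XX control. Since cells were sorted by the members, the lists are described by counts. Past 2-fold in crest over sympathoadrenal cells were 5.31% of genes higher and 9.01% lower in the XY control, 7.45% and 9.89% in the E11.5 KO, 7.78% and 10.1% in the E11.75 KO and 6.24% and 10% in the XX control. Medians of all genes were -0.06 to 0.02.

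Most tested crest genes outside the members lay on the crest side. Of those tested, 15 of 18 were higher past 2-fold in the XY control, 10 of 12 in the E11.5 KO, 8 of 9 in the E11.75 KO and 12 of 14 in the XX control, and 0, 0, 1 and 0 lower. The lower one was Sox6, at a log2 ratio of -1.80 (-3.89 to -0.34) in the E11.75 KO and below 0 in 4 of 4 samples. Ednrb was at 623 CPM in crest cells and 36.4 in sympathoadrenal cells of the XY control, 362 and 16.7 in the E11.5 KO, 577 and 11.3 in the E11.75 KO and 178 and 17.0 in the XX control. Serpine2, a protease inhibitor of glial precursors, and Zeb2, a factor of crest migration, were higher past 2-fold in 4 of 4 samples, at log2 ratios of 1.15 to 2.40 and 1.12 to 1.91.

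Genes of catecholamine storage and of neurons lay on the sympathoadrenal side. Lower past 2-fold in crest cells were 8 of 8, 8 of 8, 5 of 5 and 8 of 8 tested catecholamine genes, and 13 of 17, 13 of 14, 12 of 12 and 14 of 14 neuronal ones. The opposite direction past 2-fold was found for 1 neuronal gene, Gfra2, a receptor for the growth factor neurturin, at 3.55 CPM in sympathoadrenal and 53.5 in crest cells of the XY control. Chgb was at 746 CPM in sympathoadrenal cells and 2.67 in crest cells of the XY control, with 960.1, 1002 and 712 CPM in sympathoadrenal cells of the other samples and 0 UMIs in their crest cells. Tubb3 was at 668 and 94.9, 843 and 44.0, 532 and 75.3, and 861 and 43.9 CPM. Counts of 0 were set to 3 UMIs as a check, which changed none of these list counts. Tubb3 was thus lower in crest cells but not absent from them. Of the tested neuronal genes, 1 of 17, 2 of 14, 3 of 12 and 3 of 14 had 0 UMIs in crest cells. Stmn2 had 4 UMIs there in the XY control and 1 in each KO sample.

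The transcription factors split. Lower past 2-fold in crest cells were 4 of 11, 5 of 11, 4 of 10 and 4 of 11 of them. Gata2, Gata3 and Isl1, which act in noradrenergic differentiation, were lower in 4 of 4 samples, Gata2 at log2 ratios of -3.22 to -2.50. Hand1, a relative of Hand2, had 0 UMIs in crest cells of all samples and 142.9 to 268 CPM in sympathoadrenal cells. Sox4, a factor of progenitors, was in contrast at 393 CPM in sympathoadrenal and 672 in crest cells of the XY control, 373 and 608 in the E11.5 KO, 339.8 and 803 in the E11.75 KO and 225 and 369.9 in the XX control. It was above its sympathoadrenal level in crest cells of 4 of 4 samples, at log2 ratios of 0.70 to 1.23. Crest cells were the deeper group in each sample, with medians of 5276 against 4559 UMIs in the XY control and 29403 against 17649 in the XX control.

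**Figure D5:**
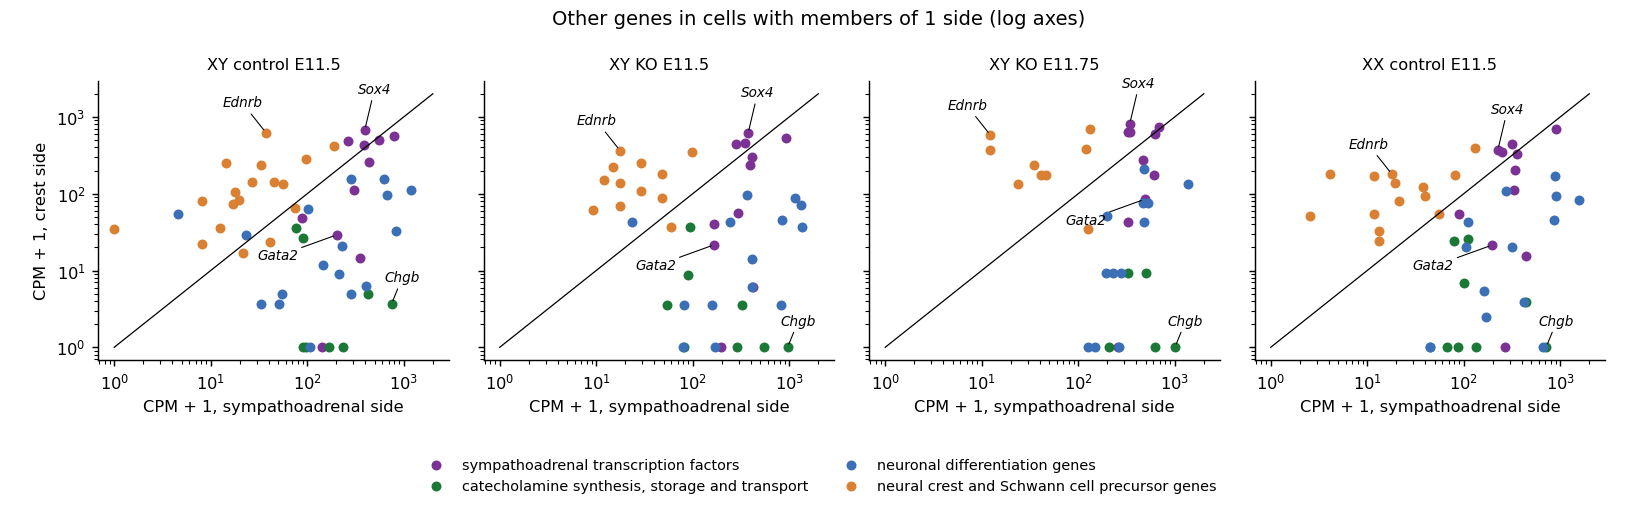
Level (CPM + 1, log axes) of genes of 4 lists in adrenosympathetic cells with UMIs of Phox2a, Hand2, Th or Dbh only (x axis) and of Sox10, Foxd3 or Erbb3 only (y axis), 1 panel per sample, with the line of equal level. Crest genes such as Ednrb lie above the line, Chgb and other catecholamine genes far below it, Gata2 below it and Sox4 above it.

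Sox10 had a second site in Sertoli cells, which support the germ cells of a testis and in which Sox9 and related factors of its family act. In the XY control it was at 31.1 CPM there (25.9 to 36.9, 129 UMIs) and found in 114 of 752 cells, or 15.2% (12.7 to 17.9). Of these 114 cells 106 also held Sox9, as did 711 of all 752 Sertoli cells. In the E11.75 KO Sox10 was at 11.69 CPM (6.04 to 20.4, 12 UMIs), in 11 of 168 cells, all 11 with Sox9, which 154 of the 168 held. In the E11.5 KO, 0 of 24 Sertoli cells held it, which allows a share of up to 12.5%, above the 6.55% of the E11.75 KO. The XX control had 2 such cells. Outside adrenosympathetic and Sertoli cells, Sox10 was at most at 0.894 CPM in any cell type of any sample. In the thinned cells its share among Sertoli cells was 8.70% in the XY control and 4.91% in the E11.75 KO. Erbb3 was at 13.2 CPM in Sertoli cells of the XY control (55 UMIs) and 12.7 in the E11.75 KO (13 UMIs).

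Erbb3 had its main second site in mesonephric tubules, the epithelium of the embryonic kidney. It was at 49.2 CPM there in the XY control (44.8 to 54.0, 446 UMIs), 49.8 in the E11.5 KO (44.3 to 55.8, 299 UMIs), 70.7 in the E11.75 KO (62.0 to 80.2, 239 UMIs) and 24.8 in the XX control (21.4 to 28.5, 193 UMIs). Erbb2, the partner receptor, was found there too, at 63.9, 44.5, 69.5 and 32.6 CPM, while Sox10 had at most 4 UMIs. The tubules comprise 3 deposited clusters, and the sum hid a contrast between them. In cluster 2 Erbb3 was at 110.0 CPM in the E11.5 KO (92.9 to 129, 145 UMIs in 272 cells) and at 6.86, 0.881 and 4.16 in the XY control, the E11.75 KO and the XX control. In cluster 3 the E11.5 KO was at 29.0 CPM against 49.9, 116 and 21.2, and in cluster 1 it had only 44 cells, at 77.1 CPM against 73.7, 95.4 and 53.7. Whether the same kind of cell carries the same cluster number in every sample was not tested. Germ cells held Erbb3 at 21.5, 20.5, 18.6 and 9.41 CPM, with at most 13 UMIs of Erbb2 in any sample. Both sites were lowest in the XX control, as adrenosympathetic cells were.

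Hand2 was also a gene of the mesonephric and coelomic linings. In mesonephric epithelium its level was 112 CPM for the XY control (104 to 120.5), 104 in the E11.5 KO (98.1 to 111), 165 in the E11.75 KO (151 to 179) and 120.1 in the XX control (110.4 to 130.5). In coelomic epithelium it was at 28.7, 22.7, 32.9 and 25.6 CPM and in mesonephros cells at 18.6, 20.8, 23.3 and 17.4. The E11.75 KO was the highest sample in these 3 sums, but in mesonephros cluster 3 it was at 12.8 CPM against 19.4 in the XY control and 19.8 in the E11.5 KO, and in cluster 2 at 15.2 against 16.3 in the XX control. These levels rested on 521 to 999 UMIs of Hand2 per sample in mesonephric epithelium. In adrenal cortex cells, the neighbours of the future medulla, Hand2 had at most 3 UMIs and Phox2a 0 in all samples (241, 127, 8 and 55 cells).

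Phox2a had a low second level in mesonephric tubules, at 5.96, 2.66, 3.25 and 7.44 CPM (54, 16, 11 and 58 UMIs). Its level was highest in tubule cluster 1, at 12.7, 7.97, 9.0 and 18.6 CPM, from 37, 3, 10 and 44 of these UMIs, while in the E11.5 KO 11 of the 16 UMIs lay in the larger cluster 3. Among the tubule cells with Phox2a, 34 of 50, 6 of 14, 7 of 10 and 24 of 34 also held Gata3, a gene of both the nephric duct and sympathoadrenal cells. Of all tubule cells, 461 of 1721, 98 of 920, 161 of 515 and 105 of 357 held it.

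Over all cells of a sample, levels also moved with the number of adrenosympathetic cells, so fewer cells and less RNA per cell are mixed in them. Phox2a was at 10.1, 4.72, 3.38 and 9.55 CPM over all cells, Dbh at 6.47, 3.71, 4.28 and 4.55 and Th at 1.996, 1.30, 2.09 and 1.24. Phox2a and Dbh were thus lower in the KO samples over all cells, while Dbh was higher there within adrenosympathetic cells. Sox10 was at 3.12, 0.887, 1.32 and 1.55 CPM, highest in the XY control, where Sertoli cells held 129 of its UMIs. Hand2 was at 26.2, 28.4, 32.8 and 25.3 CPM and Erbb3 at 9.48, 5.62, 9.17 and 5.46, and most UMIs of both came from other cell types.

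The genes most like each member were found by Pearson's correlation of log2(CPM + 1) over 50 sums of 1 cell type in 1 sample, among 14902 genes with at least 200 UMIs. These sums share libraries, so the values are descriptions. The genes found depended on the measure. With Spearman's correlation, or over the 13 cell types, 0 or 1 of the 3 most like genes of each member stayed among its 3. Phox2a was close to Hand1 (0.95) and Cfap61 (0.95), Dbh to Chgb (0.98), Dlx1 (0.98) and Nfasc (0.98) and Th to Elavl3 (0.95), Tbx20 (0.94) and Kcnk9 (0.94). Foxd3 was closest to Dlx1 (0.98), Elavl3 (0.98) and Hand1 (0.98), and Sox10 to Col9a3 (0.93), Insm1 (0.93) and Shox2 (0.91). Hand2 was closest to Lrrc4b (0.90), 5033428I22Rik (0.89) and Vat1l (0.88), and Erbb3 to Cyb561 (0.87) and Kcnh8 (0.84). Since adrenosympathetic cells were 1 type here, crest and sympathoadrenal genes correlated, as Foxd3 and Dbh did at 0.98, though their UMIs lay largely in separate cells. Hand2 and Erbb3, with further sites, correlated with each other at 0.21.

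The genes lie on chr7:101818313-101822726 (Phox2a, plus strand), chr8:57320983-57324633 (Hand2, plus), chr7:142892752-142931128 (Th, minus), chr2:27165233-27183200 (Dbh, plus), chr15:79154908-79165240 (Sox10, minus), chr4:99656299-99658622 (Foxd3, plus) and chr10:128567523-128589652 (Erbb3, minus) of mm10. The 3′ end of Phox2a overlaps Inppl1 on the opposite strand, at chr7:101822632-101822726. Cell Ranger was run with its default settings, under which a gene is credited with reads in its sense direction. Hand2, Foxd3 and Erbb3 overlap non-coding genes that are not in the table.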

How the data were processed

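Gonads with attached mesonephros were profiled by droplet single-cell RNA-seq (10x 3′ chemistry, methanol-fixed cells), with 2 runs per sample and 1 for the E11.75 KO. The deposited values are unnormalised UMI counts for each cell, which the authors made with Cell Ranger 6.1.1 on mm10. They filtered XY cells by upper limits on UMIs, genes, mitochondrial and globin shares, dropped poor clusters from the XX sample instead, removed doublets with DoubletFinder, and integrated the samples in Seurat to cluster and name cells. No cell was removed here. The deposited names were kept.

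UMIs were summed per gene, cell type and sample. CPM is that sum per 1000000 UMIs of the same cells, with exact Poisson intervals. Shares of cells carry Clopper-Pearson intervals and log2 ratios exact binomial ones, all at 95%. Ratios used a prior count of 0.5 shared out by total, and a gene was called past 2-fold with at least 20 UMIs over both samples. For shares, cells were thinned to 3000 UMIs. A count of 0 allows up to 3 counts. Named genes were the 7 members, at most 4 genes per list with the largest ratio and 4 with the highest CPM, the markers of the cell type check, and 3 genes like each member. Sox9, Erbb2 and Gm42418 were chosen after values were seen. The members and lists were chosen with earlier results of these data known. Alternatives were TMM factors (edgeR 4.0.16), totals without technical genes, mean CPM over cells, single runs, other minimum counts and priors, other depths of thinning and, added after seeing the data, a prior not scaled to the totals. Gene models were GENCODE M21 and promoters RefSeq. The self-test on simulated data ran with Python 3.11.15 and numpy 2.4.6. Some genes that these rules would name are not reported here.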

Additional observations from a re-analysis of the deposited data

Results flagged for a closer look

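Hand2 and Dbh were the members with at least 20 UMIs and a counting interval clear of 0 in opposite directions in different cell types, for the E11.5 KO against the XY control. In the E11.5 KO over the XY control, Hand2 was at a log2 ratio of -0.34 in coelomic epithelium, 0.16 in mesonephros cells and 1.10 in supporting-like cells. In the last it was at 9.19 CPM in the XY control and 19.96 in the mutant of the same stage, from 26 and 44 UMIs, with 8.01 CPM for the E11.75 KO and 4.03 for the XX control. Dbh was at 0.38 in adrenosympathetic cells and at -1.01 in mesonephros cells, where it had 44 UMIs in the XY control and 22 in the E11.5 KO, at 1.03 and 0.506 CPM. With 1 sample per group the difference between cell types was not tested.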

How the results depend on the processing

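Counts of all genes past 2-fold moved with the minimum count, the prior and single runs. For the E11.5 KO over the XY control they were 4222 with no minimum, 237 and 79 with minimums of 50 and 100 UMIs, 322 with a prior of 5, and 1079 with run 2 of the E11.5 KO alone, against 637. For the E11.75 KO over the XY control they were 5572, 608, 267 and 733 in the first 4 of these settings, against 1160. For the XX control they were 4024, 318, 134 and 386, and 1141 with run 1 of the XX control alone, against 699. For the E11.75 KO over the E11.5 KO they were 5110, 618, 243 and 835, against 1425. A higher minimum tests fewer genes by construction, and the cause of the other moves was not tested. The share of adrenosympathetic cells, taken as cells with at least 2 of 8 crest and neuronal genes among thinned cells of at least 3000 UMIs, was 1.99% in the XY control, 0.794% in the E11.5 KO, 1.09% in the E11.75 KO and 1.89% in the XX control. By the deposited name it was 1.92%, 0.761%, 0.890% and 1.97% of the same cells, and these exclude shallower cells that the main shares include. Of the cells that met the rule on genes, 295 of 344, 101 of 121, 46 of 66 and 60 of 68 carried the deposited name. The others that met it had been given other names. Over all cells and by run the share by the deposited name was 1.85% and 2.60% in the XY control. Of 280 log2 ratios of the members 28 moved beyond their interval, and the sets of most like genes changed in 14 of 14 alternatives. Against the XY control, Hand2 in all 3 comparisons, Sox10, Foxd3 and Erbb3 in both KO samples, and Phox2a in the E11.5 KO and the XX control turned in sign in at least 1 alternative, while Th and Dbh kept theirs in every one. No paired analysis was possible because each group had 1 sample.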
